A study of Rattus norvegicus with 10 samples.

Results

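Fam111a, Ythdf2, Dnajb6, Cyp4v3, Arhgap5, Tsc22d2, Tbc1d12, Itsn2 and Dhx36 are genes for which an Affymetrix probe set gave a much higher signal in islets of BioBreeding (BB) rats than in islets of F344 rats. They are 9 of the 14217 genes that the array annotation names alone for a probe set. All probe sets annotated to 1 of these symbols and to no other were taken, which gave 18 of the 31042 probe sets examined. Fam111a, Dnajb6, Arhgap5, Tsc22d2 and Tbc1d12 have 1 such probe set each, Ythdf2 and Cyp4v3 have 2, Itsn2 has 4 and Dhx36 has 5. The genes were chosen on their signal in BB against F344, so every value of that contrast below is a description and carries no test. The question put to them is whether a step between the strains is seen by every probe set of a gene or by some of them, and whether the signal also differs within the BB animals or within F344.

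RNA of pancreatic islets from rats 40 days old was hybridised to 10 arrays, 2 for each of 5 groups, and no treatment separated the groups. DR+/+ (a resistant but inducible BB strain) and JB are labelled as diabetes-inducible rats that carry no mutation at the lyp locus. JBlyp/lyp rats are labelled as diabetes prone and are homozygous for the lyp mutation. F344 and F344lyp rats are labelled healthy controls, and the design text writes the latter as F344lyp/lyp. The lyp mutation causes a severe lack of T cells in rats that carry it on both chromosomes. Per the protocols, the BB rats are congenic, DR+/+ and JBlyp/lyp rats come from DRlyp/+ breeding pairs, and islets were isolated from fasted male rats by collagenase digestion and a density gradient. No label says how the JB and DR strains are related, and that JB and JBlyp/lyp share a background is read from their names. The replicates are labelled biological, without a word on single or pooled animals, and p-values therefore cover only the spread seen among these arrays.

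The genes belong to different pathways. Fam111a encodes a protease that clears protein obstacles ahead of the replication fork. Ythdf2 encodes a reader of N6-methyladenosine (m6A) that shortens the life of the marked messages, and Dhx36 encodes a helicase that unwinds G-quadruplex structures in RNA and DNA. Dnajb6 encodes a J-domain co-chaperone of Hsp70 that keeps aggregation-prone proteins soluble. Cyp4v3 encodes a fatty acid hydroxylase of the cytochrome P450 family. Tbc1d12 encodes a TBC-domain protein that binds Rab11, Itsn2 a scaffold of endocytosis that also activates Cdc42, and Tsc22d2 a leucine-zipper protein of the TSC22 family. On this kind of array a probe set is a group of short probes against a stretch of a transcript, often near its end. A signal step therefore belongs first to the stretch that is probed,and only further probe sets of the gene show whether other stretches share it.

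The probe sequences were not used here, so the regulatory sequence in front of the genes was looked at instead. RefSeq promoters of the rat assembly GRCr8, a Brown Norway reference and neither a BB nor an F344 sequence, matched 8 of the 9 genes. Over the 250 bases before the start, on either strand, GGGCGG (the core of an Sp1 site) was found in 7 of the 8, against 30.5% of 33469 rat promoters and 52.4% of the 13192 promoters of genes on the array. CCAAT was found before Fam111a alone (34.0% of all promoters), TATAAA before Dnajb6 alone (12.9%), and TGACGTCA (the cyclic AMP response element) before Dhx36 alone (1.59%). The promoters of the 8 genes held a median of 23.5 CG dinucleotides (range 12 to 39), against a median of 5 over all promoters and 14 over those of genes on the array. Most of the 8 promoters thus hold GC-rich boxes, as do those of many genes on the array, and a match is a description of these letters. The motifs were chosen after the sequences had been read.
The promoters of the 2 genes whose signal also differed between F344lyp and F344 are shown as far as they lie outside the annotated gene, 153 bases for Fam111a and 249 for Dhx36, with the 4 motifs in capitals wherever they occur on either strand. Fam111a lies on the plus strand at chr1:219065389-219065541, and Dhx36 on the minus strand at chr2:149044193-149044441.
Fam111a: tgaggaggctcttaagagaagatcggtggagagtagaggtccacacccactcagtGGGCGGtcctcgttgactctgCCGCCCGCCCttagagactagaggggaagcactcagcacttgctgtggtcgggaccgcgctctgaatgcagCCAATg
Dhx36: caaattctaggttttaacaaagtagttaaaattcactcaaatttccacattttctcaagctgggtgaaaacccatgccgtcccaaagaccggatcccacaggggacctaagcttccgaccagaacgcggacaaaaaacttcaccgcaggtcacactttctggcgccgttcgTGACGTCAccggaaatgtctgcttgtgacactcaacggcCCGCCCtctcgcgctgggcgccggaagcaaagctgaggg

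Across the array as a whole, replicates correlated at 0.981 to 0.997, and the medians of the 10 arrays lay between 5.39 and 5.44 on the log2 scale. A measure of RNA quality differed between the strains: the control probe sets for the 3′ and 5′ ends of Gapdh differed by 2.75 to 3.71 (log2) on the 6 BB arrays and by 2.19 to 2.43 on the 4 F344 arrays. Markers of cells other than islet endocrine cells differed too. Summed linear signals of acinar markers (15 of 17 on the array) were 23370 to 67010 on BB arrays and 119100 to 179600 on F344 arrays, and those of macrophage markers (9 of 9) were 1335 to 2725 and 3469 to 4975. Endothelial markers (7 of 8) went the other way, with sums of 4268 to 11190 on BB and 3305 to 4207 on F344 arrays, and 6 of the 7 were called higher in BB and 1 lower. Their part in the steps, which lie in the same direction, was not tested. The labelled tissue was borne out by beta cell markers (7 of 10 on the array), which were present on all arrays, but DR+/+ stood apart: their sum was 29450 to 30230 there and 47530 to 55130 in the other groups. The DR+/+ arrays were also lowest for other endocrine markers (5 of 6, 5868 to 6089 against 19480 to 31950). They were highest for endothelial markers (10940 to 11190 against 3305 to 5820) and for stellate and fibroblast markers (8 of 8, 10610 to 10900 against 4216 to 6138). No marker was at 0, since the lowest marker signal on any array was 2.99 (log2). Because islets are a mixture, fewer cells of a type and less RNA per cell cannot be told apart in any value that follows, and the part of RNA quality or of cell composition in the steps was not tested beyond the alternatives given with them.

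The probe set with the highest step of each gene separated the strains completely, as 6.38% of all probe sets did towards BB; the genes were chosen for it. For Fam111a (1371970_at) the log2 signal was 10.42 and 10.37 in DR+/+, 11.67 and 11.73 in JB, 11.97 and 11.68 in JBlyp/lyp, but 5.04 and 4.80 in F344 and 5.59 and 5.71 in F344lyp. The lowest BB array lay 4.65 above the highest F344 array. The mean of the 3 BB groups exceeded that of the 2 F344 groups by 6.02 (SE 0.10), a 64.8-fold ratio of signals and the largest of all 31042 probe sets. Its F344 signals lie near the array medians, and no detection call says whether they are above background, so this ratio, like those of the genes below, holds for the signals and not for the amounts of RNA. No second Fam111a probe set shows whether the rest of the transcript shares this step.

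Dnajb6 (1392598_at) gave the most even signal within the BB animals. The 6 BB arrays ranged only from 10.10 to 10.35 with a median of 10.23, while the 4 F344 arrays read 7.32, 6.67, 7.31 and 6.88, a step of 3.18 (SE 0.14, 9.06-fold). The groups were thus 2.78 apart at their nearest arrays. A pair of further probe sets name Dnajb6 together with the pseudogenes Dnajb6-ps10 and Dnajb6-ps4 and so fall outside the rule. They did not show this step: 1391422_at differed by -0.19, and 1382024_at, lower in BB, by -1.41, with BB arrays at 3.66 to 5.09 and F344 arrays at 5.50 to 6.37. Which of the 3 genes those 2 probe sets read cannot be told from the annotation.

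**Figure D1:**
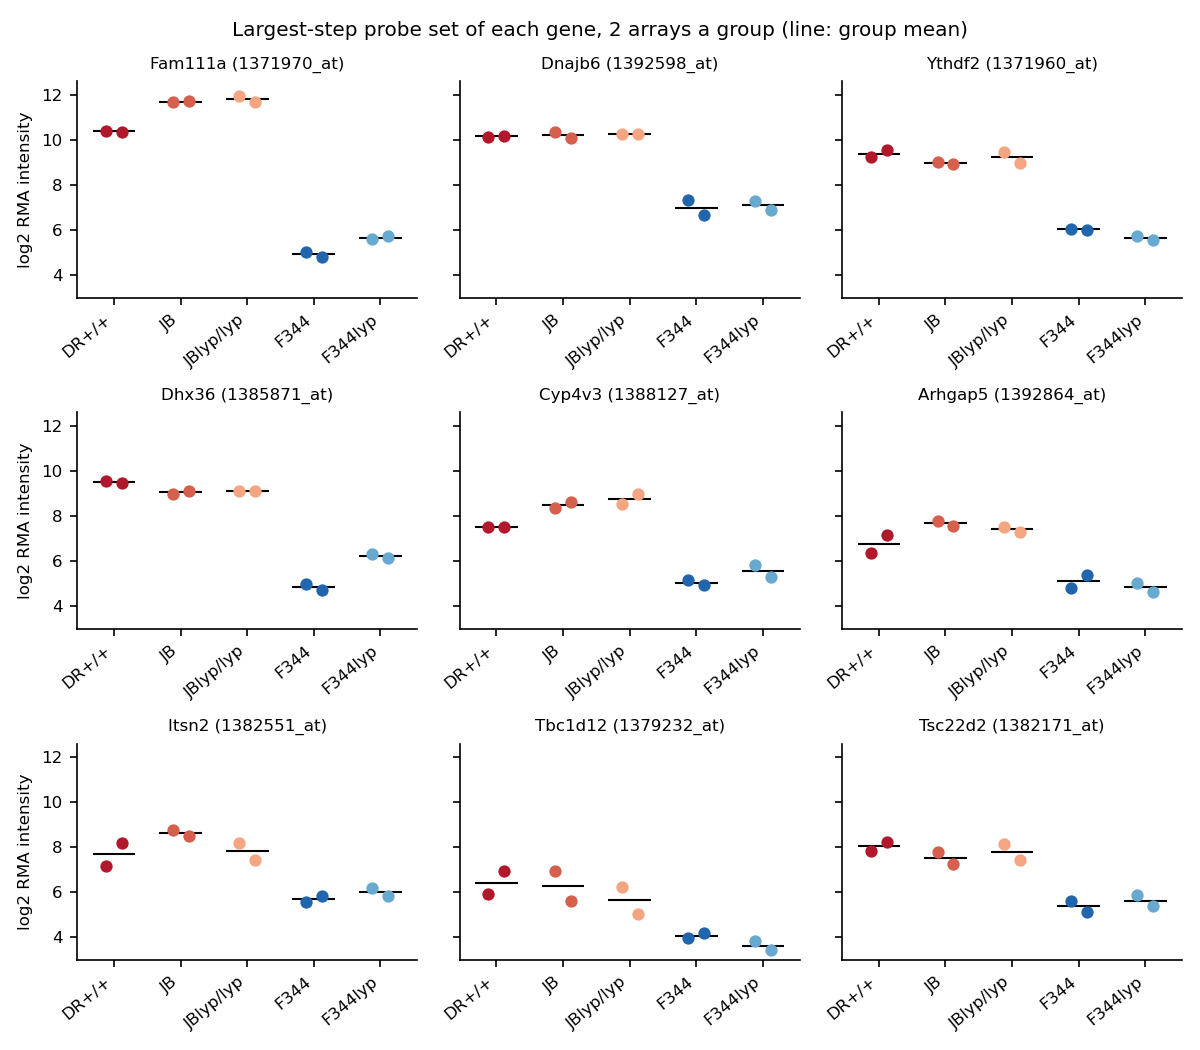
Log2 RMA intensity (vertical axis) of the probe set with the highest step of each of the 9 genes in the 5 groups (horizontal axis). Points are arrays, 2 a group, and lines are group means; in every panel the 6 BB arrays lie above the 4 F344 arrays, by 4.65 at the nearest arrays for Fam111a and by 0.87 for Tbc1d12.

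Arhgap5 (1392864_at) read 6.37 and 7.15 in DR+/+, 7.76 and 7.58 in JB, 7.53 and 7.28 in JBlyp/lyp, and 4.64 to 5.39 on the F344 arrays. The step was 2.31 (SE 0.18), and the nearest arrays of the strains were 0.97 apart. Tsc22d2 (1382171_at) ranged from 7.24 to 8.24 (median 7.79) on BB arrays and from 5.12 to 5.85 on F344 arrays, a step of 2.28 (SE 0.19). Tbc1d12 (1379232_at) was the noisiest member, with replicates that lay as far apart as 5.61 and 6.93 in JB. Its BB arrays ran from 5.03 to 6.93 (median 6.06) and its F344 arrays from 3.41 to 4.16, a step of 2.27 (SE 0.32). These 3 genes, too, have 1 probe set each, so for 5 of the 9 genes the array cannot tell a step of the whole transcript from a step of the probed stretch.

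The 4 genes with several probe sets can be read in this way, and in none of them did every probe set show the step. Ythdf2, the m6A reader, has 2 probe sets of usable signal. With 1371960_at the 6 BB arrays read 8.92 to 9.54 (median 9.14), against 6.07 and 6.00 in F344 and 5.73 and 5.56 in F344lyp. That is a step of 3.36 (SE 0.12, 10.3-fold), with the nearest arrays 2.86 apart. With 1375695_at the same RNAs read 6.79 and 7.03 in DR+/+, 8.13 and 8.03 in JB, 8.19 and 7.92 in JBlyp/lyp, 7.73 and 7.65 in F344 and 7.24 and 7.49 in F344lyp. Here the strains overlapped and the difference was 0.15 (SE 0.10), 0.05 of the other probe set's step. The small mean also joined opposite values, since DR+/+ lay below F344 by 0.78 on average (-0.78) and JBlyp/lyp above F344lyp by 0.69.

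Dhx36, the G-quadruplex helicase, showed a graded set of steps over its 5 probe sets. With 1385871_at the arrays read 9.55 and 9.46 in DR+/+, 8.99 and 9.12 in JB and 9.10 and 9.13 in JBlyp/lyp, against 4.98 and 4.71 in F344 and 6.31 and 6.13 in F344lyp, a step of 3.69 (SE 0.09, 12.9-fold). With 1379101_at the BB arrays ran from 8.06 to 9.61 (median 9.33) and the F344 arrays from 6.92 to 7.86, a step of 1.66 (SE 0.15). With 1385872_at they ran from 8.70 to 9.16 and from 7.55 to 7.91, a step of 1.11 (SE 0.10). In these 3 probe sets the strains did not overlap, although the steps differed in size and the nearest arrays were 2.68, 0.20 and 0.79 apart. With 1393432_a_at, the probe set with the highest mean signal, the strains overlapped (8.53 to 9.30 and 8.28 to 8.66) and the difference was 0.36 (SE 0.16). The last, 1377906_at, stayed between 2.72 and 3.15 on all arrays and differed by -0.08 (SE 0.09), a signal too dim to carry a step.

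In Itsn2, the endocytic scaffold, 1 of 4 probe sets separated the strains. That probe set, 1382551_at, read 7.17 and 8.19 in DR+/+, 8.76 and 8.50 in JB, 8.18 and 7.42 in JBlyp/lyp, and 5.54 to 6.18 in F344 and F344lyp, a step of 2.19 (SE 0.22). A second probe set of usable signal, 1393625_at, gave 6.83 to 7.28 on BB and 6.72 to 6.93 on F344 arrays, a difference of 0.18 (SE 0.12). The other two were dim: 1395799_at (3.18 to 3.69 over all arrays) differed by 0.19, and 1396256_at differed by 0.57 because the DR+/+ arrays alone were raised, at 4.66 and 4.83 against 3.17 to 4.01 elsewhere. Without the DR+/+ arrays that difference was 0.18.

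Cyp4v3, the fatty acid hydroxylase, gave a step of 2.94 (SE 0.14, 7.67-fold) with 1388127_at. The arrays read 7.50 and 7.51 in DR+/+, 8.36 and 8.64 in JB, 8.52 and 8.97 in JBlyp/lyp, 5.15 and 4.94 in F344 and 5.84 and 5.31 in F344lyp, with 1.65 between the nearest arrays of the strains. Its other probe set, 1370889_at, was dim (3.41 to 4.23 over all arrays), overlapped between strains and differed by 0.31. A dim probe set has little room to show a step, so the 2 Cyp4v3 probe sets bear less on the question than those of Ythdf2 or Dhx36.

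**Figure D2:**
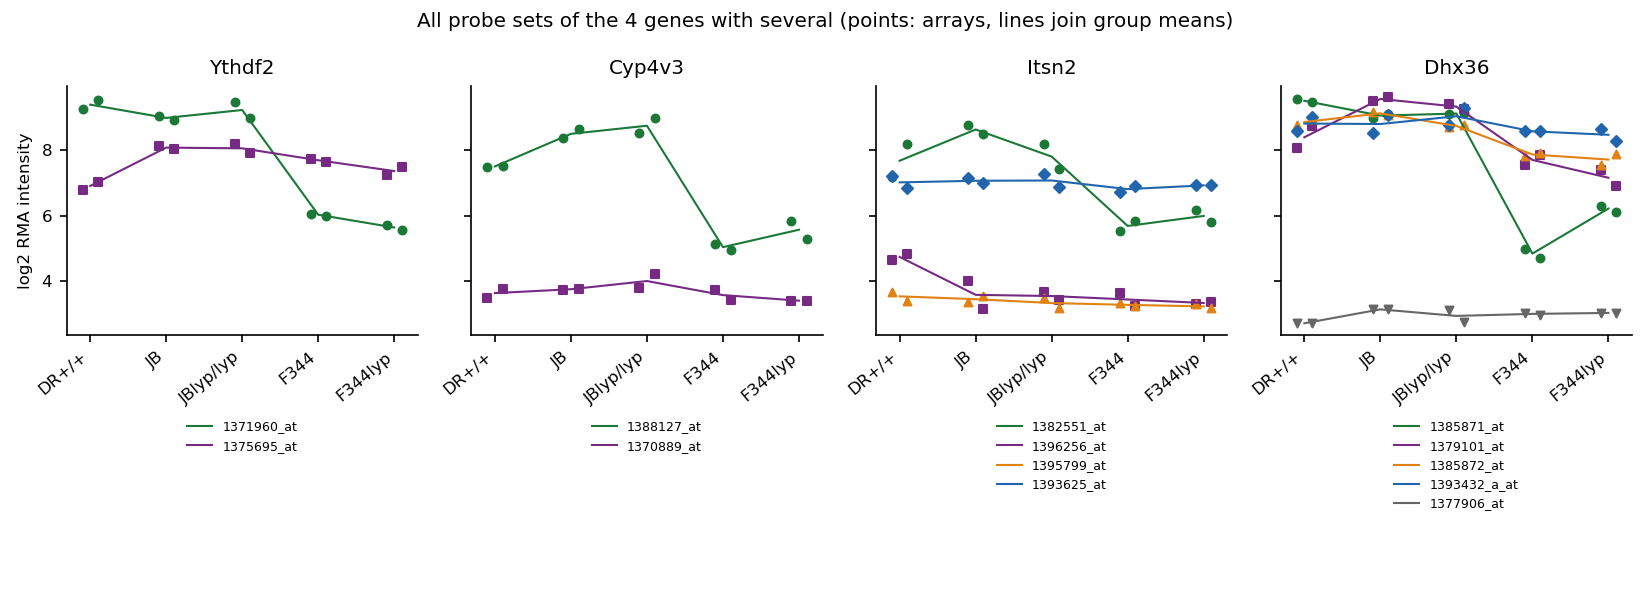
Log2 RMA intensity (vertical axis) of every probe set of Ythdf2, Cyp4v3, Itsn2 and Dhx36 in the 5 groups (horizontal axis); points are the 2 arrays of a group, lines join group means, and colours and symbols mark probe sets. The probe set with the highest step drops between the BB and the F344 groups in each panel, while for example Ythdf2 1375695_at and Itsn2 1393625_at overlap between strains.

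Counted over the list, 12 of the 18 probe sets passed the array-wide threshold (adjusted p under 0.05) as higher in BB, where 16.2% of all probe sets did. The members were chosen for this, and nothing is read from the count. Of all probe sets, 0.238% had a gap of at least 1 between the nearest arrays, and 91 (0.293%) had a step of at least 2. Of the 9 probe sets that were not the highest of their gene, 0 reached 0.5 of the highest step and 3 reached 0.25 (Dhx36 1379101_at at 0.45, Dhx36 1385872_at at 0.30 and Itsn2 1396256_at at 0.26). Without the DR+/+ arrays the step of Dhx36 1379101_at was 2.01 and that of 1385871_at 3.55, so that this 1 of the 9 then passed 0.5. How a gene is summarised therefore sets its step: the mean over all probe sets of Dhx36 was 1.35 and its brightest probe set gave 0.36, while for Ythdf2 the mean was 1.76 against 3.36, for Cyp4v3 1.62 against 2.94 and for Itsn2 0.78 against 2.19.

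Probe sets of unequal step were also seen in other genes. Among the other genes of the array whose highest step was at least 2 towards BB, 24 had further probe sets, and 6 of those 58 (10.3%) reached 0.5 of the highest step. Towards F344 there were 14 such genes, and 5 of their 18 further probe sets (27.8%) did. The share of 0 of 9 for the members was not tested against these, because the highest step was picked first in every gene. Dim probe sets were not left out of any of these counts.

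**Figure D3:**
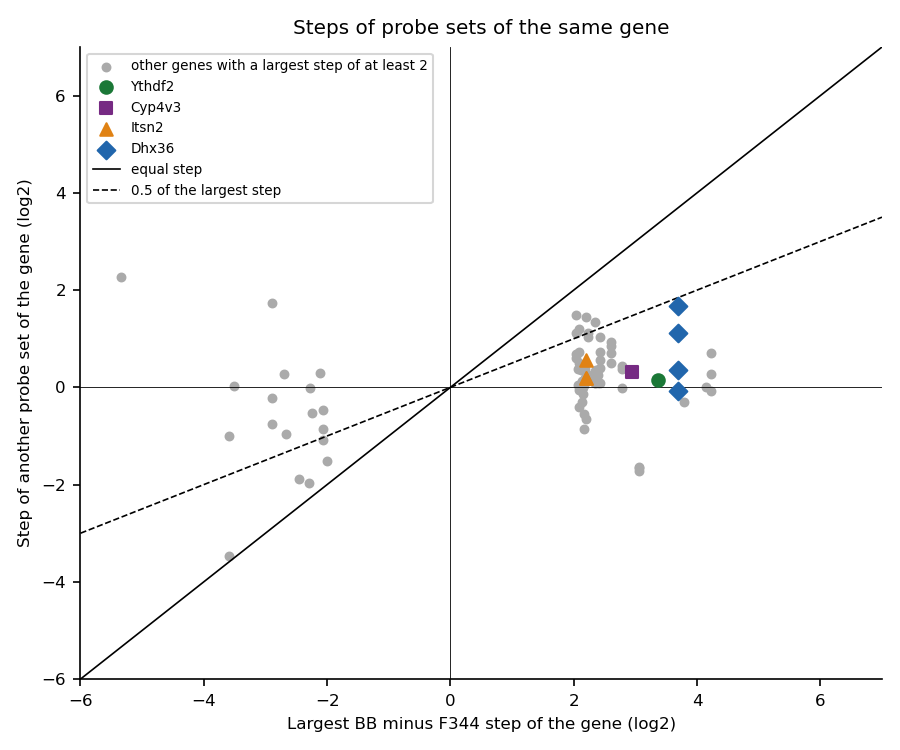
Step of each further probe set of a gene (vertical axis, log2, BB minus F344) against the largest step of that gene (horizontal axis, log2), for the 4 member genes (coloured) and all other genes with a largest step of at least 2 in size (grey). The solid line marks equal steps and the dashed line 0.5 of the largest; all 9 coloured points lie nearer 0 than the dashed line, the closest being Dhx36 1379101_at at 1.66 against 3.69.

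Other settings changed the steps in size. With the Gapdh 3′ to 5′ difference as a covariate, which itself separates the strains, the steps of Fam111a (6.31), Dhx36 1385871_at (3.83), Ythdf2 1371960_at (3.31), Cyp4v3 1388127_at (2.88) and Dnajb6 (2.60) stayed above 2. Those of Arhgap5 (1.79), Itsn2 1382551_at (1.73) and Tsc22d2 (1.62) were under it, and that of Tbc1d12 was 0.61 with an SE of 1.30. For the last 4 of these genes the SE was between 0.76 and 1.30. Because the covariate separates the strains, the step and the difference in RNA quality cannot be told apart for any of the genes, including those that stayed above 2.

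Against F344, the 3 BB groups gave steps of unequal height for some genes. For Fam111a, DR+/+ lay 5.48 and JB 6.78 above F344, and JBlyp/lyp lay 6.17 above F344lyp. For Dnajb6 the same differences were 3.17, 3.23 and 3.18, and for Ythdf2 1371960_at 3.36, 2.95 and 3.58. Cyp4v3 1388127_at gave 2.46, 3.45 and 3.17, and Dhx36 1385871_at gave 4.66, 4.21 and 2.90. Among the genes named here, Dnajb6 was the most level over the 3 comparisons. For Ythdf2 1371960_at the difference between DR+/+ and JB was not called (0.41, SE 0.18, limma, adjusted p = 0.128). DR+/+ and JB share the F344 arrays as their control in these values.

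Between JBlyp/lyp and JB, the BB groups whose names share a background, no difference in any of the genes passed the threshold: 0 of the 18 probe sets passed (limma, adjusted p under 0.05) and 1 of all 31042 did (0.00322%). At an unadjusted p under 0.05 there were 2 of the 18 and 1935 of all. The differences ran from -0.83 (Itsn2 1382551_at, SE 0.34) to 0.27 (Tsc22d2, SE 0.29). Fam111a differed by 0.12 (SE 0.15) and Dnajb6 by 0.05 (SE 0.22). For Itsn2 1382551_at the arrays did not overlap, at 8.76 and 8.50 in JB and 8.18 and 7.42 in JBlyp/lyp, and its unadjusted p was 0.0342. That of Dhx36 1385872_at, with a difference of -0.38, was 0.0312, so these 2 missed the threshold only after adjustment over the array.

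Within F344, the lyp allele went with a higher signal of 2 members, Dhx36 and Fam111a. Over all probe sets 1.51% were called in this comparison, 1.12% as higher (349 higher and 119 lower, or 327 and 196 after a further quantile normalization). For Dhx36 1385871_at the arrays read 6.31 and 6.13 in F344lyp and 4.98 and 4.71 in F344. The difference was 1.37 (SE 0.14, adjusted p = 0.00203), and it was called under each of the 17 alternatives tried for it, with values of 1.24 to 1.51 when an array was left out. The other 4 Dhx36 probe sets did not follow: 1379101_at differed by -0.54 (SE 0.24), 1385872_at by -0.16, 1393432_a_at by -0.11 and 1377906_at by 0.03, none of them called.

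Fam111a read 5.59 and 5.71 in F344lyp and 5.04 and 4.80 in F344, a difference of 0.74 (SE 0.15, adjusted p = 0.0489). The arrays of the groups did not overlap, but the call ended when any of the DR+/+, JB, F344 or F344lyp arrays was left out (adjusted p = 0.0575 to 0.412, differences of 0.61 to 0.86), while it held without either JBlyp/lyp array. It also ended without dim probe sets (adjusted p = 0.0595), with an intensity trend (0.0706) and with the Gapdh covariate (0.218). Cyp4v3 1388127_at (0.53, SE 0.21, adjusted p = 0.274) was not called, nor were the remaining 15 probe sets. Markers of other cells also moved between these groups: the acinar sum was 158000 to 179600 in F344lyp and 119100 to 135200 in F344, with 2 of 15 genes called higher, 2 of 3 mesothelial markers were called higher, and 2 of 10 T cell markers were called lower. Their part in the 2 calls was not tested.

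The lyp effects in the 2 strains differed for 1 probe set, Dhx36 1385871_at. The lyp difference was 0.06 (SE 0.14) in JB and 1.37 (SE 0.14) in F344, a difference of -1.31 (SE 0.20, adjusted p = 0.0377), in a comparison where 0.283% of all probe sets were called. The call ended in each of the 10 fits with an array left out, at adjusted p = 0.0556 to 0.269, although the difference stayed between -1.45 and -1.17. Between the groups without lyp, JB lay 4.21 above F344 with this probe set. For Fam111a the lyp effects differed by -0.61 (SE 0.21, adjusted p = 0.492), so its call in F344 and the lack of 1 in JB do not show a difference between the strains.

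DR+/+ and JB, which both lack the lyp mutation, differed in 7 of the 18 probe sets, 2 higher and 5 lower in DR+/+. Many probe sets differ between these groups: 28.3% of all were called, 13.0% higher and 15.4% lower, so 7 of 18 is not far from what the array shows throughout. Fam111a was lower in DR+/+, at 10.42 and 10.37 against 11.67 and 11.73, by 1.30 on average (-1.30, SE 0.15, adjusted p = 0.000176). Cyp4v3 1388127_at was lower too, at 7.50 and 7.51 against 8.36 and 8.64 (-0.99, SE 0.21, adjusted p = 0.00651). Both differences are much smaller than the step of the same probe set to F344, and neither pair of groups overlapped.

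In some genes the probe sets parted ways. Ythdf2 1375695_at, which showed no strain step, fell to 6.79 and 7.03 in DR+/+ from 8.13 and 8.03 in JB (-1.17, SE 0.16, adjusted p = 0.000464), whereas 1371960_at differed by 0.41 the other way (SE 0.18, adjusted p = 0.128). Dhx36 1379101_at was lower in DR+/+ (8.06 and 8.73 against 9.51 and 9.61, -1.17, SE 0.24, adjusted p = 0.0046), and 1385871_at was higher (0.45, SE 0.14, adjusted p = 0.0422). The latter call ended without any of the DR+/+, JB or F344 arrays in turn, at adjusted p = 0.0555 to 0.174, and with the Gapdh covariate (0.153). So the probe sets of 1 gene differed in opposite directions between the same 2 groups, for Dhx36 with both called and for Ythdf2 with 1 called.

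Arhgap5 was lower in DR+/+ by 0.91 on average (-0.91, SE 0.27, adjusted p = 0.0315). Its replicates in DR+/+, 6.37 and 7.15, lay far apart, and without DR+/+ replicate 1 the difference was -0.52 (adjusted p = 0.233). It also missed the threshold without JB replicate 1 (-0.82, adjusted p = 0.129) and without JB replicate 2 (-1.01, adjusted p = 0.0624), and with the Gapdh covariate (-0.79, adjusted p = 0.15). Itsn2 1396256_at was higher in DR+/+ (1.15, SE 0.25, adjusted p = 0.00707), but its JB arrays, at 4.01 and 3.17, lay far apart. The difference was 1.07 (adjusted p = 0.0518) without DR+/+ replicate 2 and 0.73 (adjusted p = 0.0338) without JB replicate 2. Itsn2 1382551_at, the probe set with the strain step, was not called (-0.95, SE 0.34, adjusted p = 0.0602), but its DR+/+ arrays, at 7.17 and 8.19, lay far apart: the difference was -0.44 (adjusted p = 0.402) without DR+/+ replicate 1 and -1.46 (adjusted p = 0.0131) without DR+/+ replicate 2. Not called either were Dnajb6 (-0.06, SE 0.22), Tsc22d2 (0.53, SE 0.29) and Tbc1d12 (0.14, SE 0.50). The lower beta and acinar and higher endothelial and stellate marker sums of the DR+/+ arrays, given above, stand beside each of these differences, and their part was not tested.

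JBlyp/lyp against DR+/+ uses the same DR+/+ arrays, so the 2 sets of differences share their control and are given side by side. These groups, which per the protocols come from the same breeding pairs, also differ in lyp, and an effect of lyp, of the strain and of the composition of the DR+/+ arrays cannot be told apart in them. Of the 18 probe sets 5 were called, 4 higher and 1 lower in JBlyp/lyp, where 32.1% of all probe sets were called (17.6% higher and 14.5% lower). Fam111a was higher by 1.43 (SE 0.15, adjusted p = 7.91e-05), Cyp4v3 1388127_at by 1.24 (SE 0.21, adjusted p = 0.00158), Ythdf2 1375695_at by 1.15 (SE 0.16, adjusted p = 0.000419) and Dhx36 1379101_at by 0.93 (SE 0.24, adjusted p = 0.0129). The last lost its call without DR+/+ replicate 1 (0.60, adjusted p = 0.105). Itsn2 1396256_at was lower (-1.19, SE 0.25, adjusted p = 0.00518). The Gapdh 3′ to 5′ difference was 3.18 to 3.39 in DR+/+ and 2.75 to 2.97 in JBlyp/lyp, and with it as a covariate Itsn2 1396256_at differed by -0.63 (adjusted p = 0.275), Dhx36 1379101_at by 1.01 (0.134) and Cyp4v3 1388127_at by 1.27 (0.0502), while Fam111a and Ythdf2 1375695_at remained called. Dnajb6 again differed little (0.11, SE 0.22), as did Ythdf2 1371960_at (-0.16, SE 0.18).

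**Figure D4:**
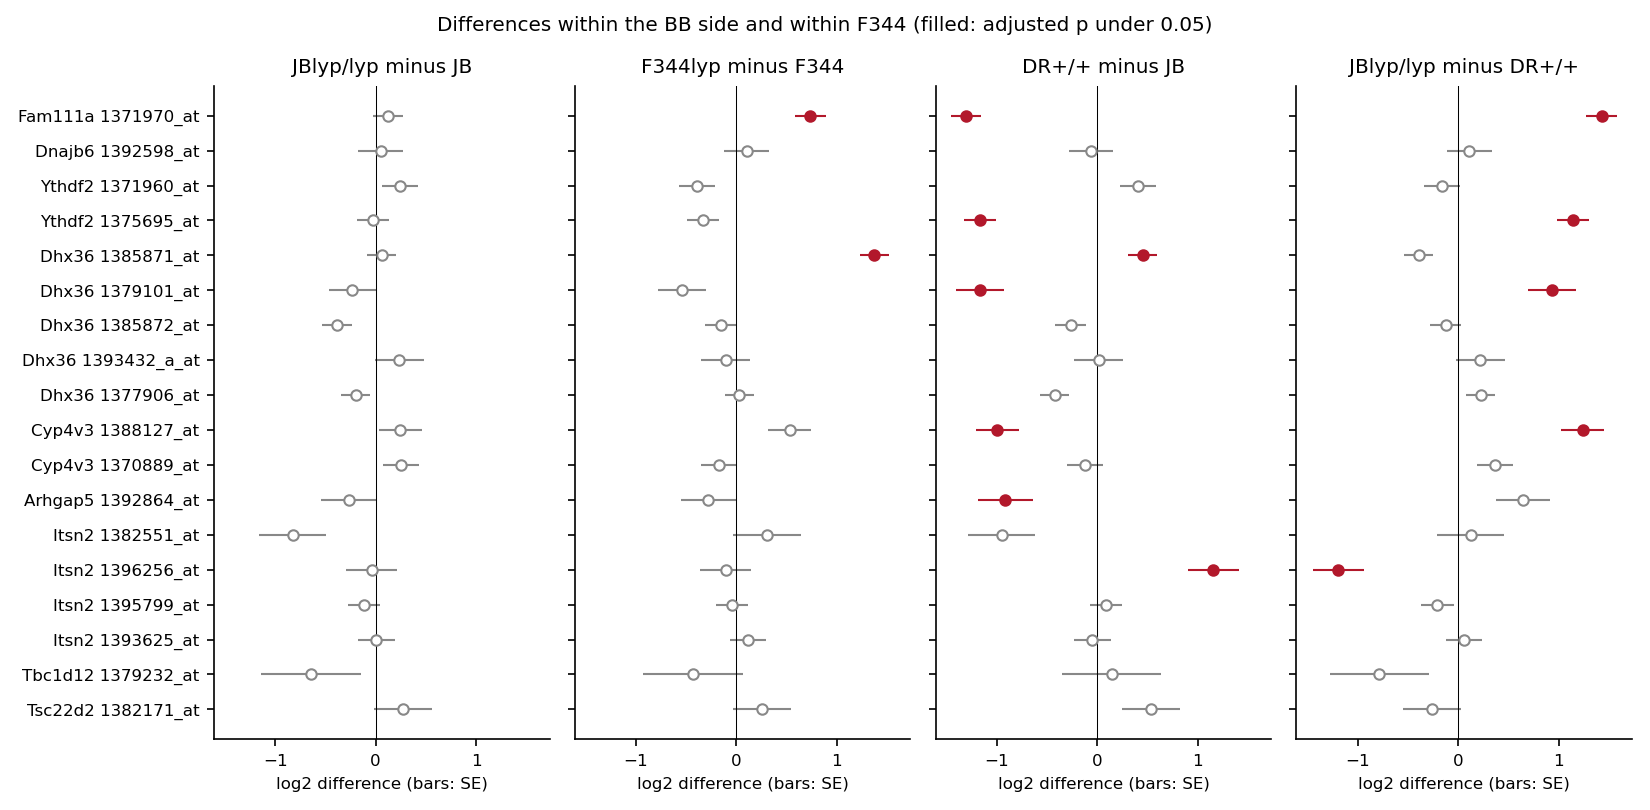
Difference between groups (horizontal axis, log2, with SE bars) for each of the 18 probe sets (vertical axis) in the 4 comparisons that did not choose the genes; filled points passed an adjusted p under 0.05 (limma). No point is filled for JBlyp/lyp against JB, 2 are filled for F344lyp against F344, and Dnajb6, Tsc22d2 and Tbc1d12 are filled in none of the panels.

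The signals of the genes varied together over the arrays, all of which share the split between BB and F344. Over the 10 arrays, Pearson's r between the highest-step probe sets of 2 members ran from 0.771 (Cyp4v3 and Tbc1d12) to 0.985 (Dnajb6 and Ythdf2). Outside the list, the probe set most like Fam111a was Vezf1 1376594_at (r = 0.985). For Arhgap5 it was one of Evi5 (r = 0.99), for Dnajb6 Lysmd4 1372060_at (r = 0.989), for Tbc1d12 Riok1 (r = 0.996), for Tsc22d2 Pggt1b (r = 0.990) and for Dhx36 Paip1 (r = 0.989). For Ythdf2 it was one of Cbl (r = 0.987), for Itsn2 Plpp3 (r = 0.982) and for Cyp4v3 C10h17orf58 (r = 0.980). These r values describe 10 arrays of 2 strains and were not tested.

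The probe sets of these look-alikes agreed in some genes and not in others. Of 24 such genes 18 had further probe sets, and 9 of those 41 probe sets, in 8 genes, reached 0.5 of the look-alike's step. That step is not always the highest of its gene, so this share is not on the measure used above. Pxmp4 is counted here, although its look-alike probe set stepped by 0.35 and its other by 2.12. Vezf1, a zinc-finger factor of endothelial cells, stepped by 2.78 with 1376594_at, and its 3 further probe sets gave -0.01 to 0.44. Wtap, a subunit of the m6A methyltransferase and among the 3 closest to both Dhx36 (r = 0.984) and Tsc22d2 (r = 0.983), stepped by 4.14 with 1379249_at and by 0.00 with its other probe set. Lysmd4 stepped by 3.06 with 1372060_at and its 3 further probe sets lay at -1.73 to -1.64, the opposite way. Mef2a, a transcription factor best known from muscle and close to Arhgap5 (r = 0.988), stepped by 1.84 with 1378360_at, and its further probe sets ran from 0.43 to 1.93. Pds5b, a cohesin regulator, agreed more closely (0.50, with others at 0.47 and 0.72), while Plpp3, a lipid phosphatase, was mixed (1.80, with others at 0.33 and 1.46). These examples were chosen after their values were seen.

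Genes near the members in chromosome order had small differences between the strains in most cases. The 3 nearest genes on each side with a probe set of their own made 52 genes, with a median difference of 0.00 (all genes, -0.04). They lay 1 to 41 places from their member in the RefSeq gene order, and before Dnajb6 only Il6 was counted. Of the 52 genes, 6 were called higher and 8 lower in BB, where 13.3% and 24.6% of all genes were. Differences of at least 1 in size were seen in 2 of them: Klkb1, the plasma prekallikrein gene near Cyp4v3, was lower in BB (-2.38), and Nom1, a nucleolar protein gene near Dnajb6, was higher (1.79). Dhx36 and Tsc22d2 lie on the same chromosome with 51 RefSeq genes between them, and the 12 of those on the array differed by -0.70 to 0.55, none of them by 1 or more in size. Gene order was taken from the RefSeq table of GRCr8.

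Relatives and partners of the members were spread over both directions. Of 110 genes listed for the 9 members, 100 are on the array. Between BB and F344, 22 were higher and 24 lower, with a median of -0.07 (all genes, -0.04), where 13.3% of all genes were called higher and 24.6% lower. With the Gapdh covariate 0 of the 100 were called. Of the 12 m6A genes 4 were higher and 0 lower (median 0.28), and of the 9 Cyp4 hydroxylases 0 were higher and 3 lower (median -0.20). Each listed gene was read by its brightest probe set, so Wtap, of the m6A list, counts here with 0.00 and not with its other probe set. Read so, 1 listed gene differed by at least 1, Dnajb1, the heat-inducible Hsp40 (1.24), whose arrays overlapped between the strains (10.15 to 12.43 and 9.51 to 10.67). In F344lyp against F344, 2 of the 100 were called, both lower (0.317% of all genes were lower and 1.58% higher): Hspa1a, the inducible Hsp70 (-1.30, SE 0.15, adjusted p = 0.00309), and Tsc22d3, the glucocorticoid-induced leucine zipper (-1.27, SE 0.21, adjusted p = 0.0192), which was not called with the Gapdh covariate (-1.24, adjusted p = 0.123). In JBlyp/lyp against JB 0 of the 100 were called with limma (0.00703% of all genes were). An unadjusted p under 0.05 was seen in 7 of the 100 and in 1935 of all 31042 probe sets.

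Between DR+/+ and JB a part of the J-domain and Hsp70 genes listed for Dnajb6 was lower in DR+/+, while Dnajb6 itself was not called (-0.06, SE 0.22). Of all genes, 15.5% were called higher and 18.4% lower in DR+/+. Of the 14 J-domain and Hsp70 genes 7 were called lower and 0 higher, led by Dnajb1 (-2.14, SE 0.21, adjusted p = 7.3e-05), Hspa1a (-1.99, SE 0.15, adjusted p = 1.67e-05) and Dnajb9, a chaperone of the endoplasmic reticulum (-1.62, SE 0.18, adjusted p = 0.000155). Dnajc3 (-1.23), Dnajb14 (-1.12), Dnaja1 (-1.05) and Bag3 (-0.63) completed them, and 6 of the 14 were called higher in JBlyp/lyp than in DR+/+, where 22.0% of all genes were higher and 16.8% lower. Of 11 helicase genes listed for Dhx36, 3 were called lower in DR+/+ (Dhx30, -1.63; Dhx32, -1.33; Dhx40, -0.58) and 0 higher.

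In the remaining lists the calls between DR+/+ and JB went both ways. Among the m6A genes Mettl14 was higher (1.12) and Mettl3 lower (-0.85), although both encode the methyltransferase core, while Virma was higher (0.59) and Cnot1 lower (-0.69). Cyp4f1 was higher (2.43, SE 0.17, adjusted p = 1.32e-05), and Cyp4f17 lower (-0.52). Of the Rab GTPase activators and recycling genes listed for Tbc1d12, 3 were called higher (Tbc1d1, 1.16; Tbc1d4, 1.17; Rab11fip1, 0.53) and 4 lower (Tbc1d15, -0.90; Ulk1, -0.69; Rab11b, -0.49; Tbc1d7, -0.42). Of those for Tsc22d2, Tsc22d3 (1.17) and Nrbp2 (0.65) were higher and Tsc22d4 (-0.65) and Nrbp1 (-0.57) lower. Of the endocytosis genes Eps15 (0.81) and Fcho2 (0.61) were higher and Eps15l1 (-0.97) lower, and of the replication fork genes Rfc1 (0.86) and Mcm5 (0.50) were higher and Fen1 (-0.72) and Parp1 (-0.55) lower. Over all 100 genes 12 were higher and 23 lower in DR+/+, a split that became 20 and 20 after a further quantile normalization, and in JBlyp/lyp against DR+/+ it was 28 and 13, which became 20 and 21.

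With the same DR+/+ arrays as the baseline, JBlyp/lyp islets gave higher signals for some J-domain and Hsp70 genes listed for Dnajb6. These were Dnajb9 (1.88), Dnajb1 (1.40), Hspa1a (1.07), Dnajc3 (0.89), Dnajb14 (0.89) and Dnaja1 (0.78), and none of that list was called lower. For the helicases Dhx32 (2.08), Dhx30 (1.90), Dhx40 (0.75), Dhx9 (0.71) and Dhx57 (0.48) were higher and none lower. The m6A genes went both ways, with the methyltransferase subunit Mettl3 (0.87), the demethylases Alkbh5 (0.72) and Fto (0.55) and Cnot1 (0.60) higher and Mettl14 (-1.12) and Virma (-0.60) lower. Of the fork genes Fen1 (0.80) and Parp1 (0.46) were higher and Mcm5 (-1.04), Rfc5 (-0.68), Rfc1 (-0.57) and Rfc4 (-0.54) lower. Cyp4f1 was lower (-2.80) and Cyp4f17 higher (0.52), and of the endocytosis genes Epn1 was higher (0.54) and Eps15 (-0.80) and Fcho2 (-0.57) lower. Among the Rab GTPase activators and recycling genes Tbc1d15 (1.22), Tbc1d7 (0.77), Tbc1d14 (0.71), Ulk1 (0.66) and Rab11b (0.53) were higher and Tbc1d1 (-1.06) and Rab11fip1 (-0.45) lower. Among the genes listed for Tsc22d2, Tsc22d4 (0.71), Nrbp1 (0.64) and Wnk1 (0.49) were higher and Tsc22d3 (-1.20) and Nrbp2 (-0.71) lower. The marker sums that set the DR+/+ arrays apart stand beside these values as well, and their part was not tested. With the Gapdh covariate, 15 of these 41 calls were kept (10 higher and 5 lower), and between DR+/+ and JB 9 genes were called higher and 13 lower.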

How the data were processed

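RNA of pancreatic islets was measured on 10 Affymetrix arrays, 2 in each of 5 groups. The authors deposited log2 intensities for every probe set of an array. GCOS and RMA are named for them in the submitters' processing notes, with no version. RMA pools the probes of a set, so single probes and detection calls were not analysed here. The 57 control probe sets among the 31099 were left out. limma 3.58.1 in R 4.3.3 fitted 1 mean per group to 31042 probe sets over all 10 arrays (residual df 5, prior df 4.72), with two-sided moderated tests and Benjamini-Hochberg adjustment over all of them, called at an adjusted p under 0.05. Its fit was tested on simulated data with independent errors, for both lyp comparisons and DR+/+ against JB. In each simulation 200 of the 31042 probe sets were changed and the rest were level. It recovered 0.0% of changes of 0.5 (log2), 45.5% to 57.5% of changes of 1.0 and 94.0% to 94.5% of changes of 2.0. In the data 28.3% of probe sets were called between DR+/+ and JB, among them Dhx36 1385871_at with 0.45. The recovered shares therefore do not carry over to that comparison. Up to 9.01% of its calls there were false. The number of arrays limits the precision. BB minus F344 is the mean of 3 group means minus that of 2. In the platform annotation 20826 probe sets carry 1 gene symbol, 436 carry more and 9780 are unnamed. The members and lists were chosen with earlier results of these data known. Named were the members, their 3 closest probe sets by Pearson's r, neighbours with a difference of at least 1, and listed genes called in a tested comparison or with a BB difference of at least 1, each gene by its brightest probe set. Figures used matplotlib 3.10.9 and Python 3.11.15. The members of the list for Arhgap5 are not reported here by name.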

Additional observations from a re-analysis of the deposited data

Results flagged for a closer look

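Dhx36 1385871_at differed between the strains in its lyp effect: the log2 difference between JBlyp/lyp and JB minus that between F344lyp and F344 was -1.31 (SE 0.20, limma, adjusted p = 0.0377). The lower F344 arrays (4.98 and 4.71) and the higher F344lyp arrays (6.31 and 6.13) carry it, while the 4 JB and JBlyp/lyp arrays lie between 8.99 and 9.13. Groups of 2 arrays were not examined for single outlying arrays.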

How the results depend on the processing

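Of 270 steps between BB and F344 (18 probe sets under 15 alternatives), 251 moved by less than the replicate SD and 18 moved by more (12 with the Gapdh 3′ to 5′ covariate, 6 without the DR+/+ arrays, an alternative chosen after seeing the data). A turn of sign was counted only for steps called in the main fit, and 1 turned: Itsn2 1396256_at, -0.66 with the Gapdh covariate. Any change of sign in a step that was not called lies among the 251 or the 18. Of 20 tested values called in some setting, 0 turned under any alternative, 44 alternative values lost a call and 13 gained one; the cause was not tested. Calls in JBlyp/lyp against JB (1) were 3 with an intensity trend, 5 with the replicate block, 0 with the covariate or only the compared arrays, and 0 to 4 with an array left out. Calls in F344lyp against F344 (468) were 304 without dim probe sets (mean under 5), 745 with the replicate block, 123 with the covariate, 3230 with only the compared arrays, and 58 to 823 with an array left out; member calls (2) were 1 without dim probe sets, with the trend and with the covariate, and 1 to 2 with an array left out. For the difference of lyp effects (88), calls were 58 without dim probe sets, 7 with the covariate and 18 to 130 with an array left out, and the member call (1) was 0 under these, the trend and only the compared arrays, and held with the replicate block. JBlyp/lyp against DR+/+ gave 4242 calls with the covariate (9949 otherwise) and 2 member calls (5). Same-numbered arrays deviated together in some pairs of groups only (correlation 0.65 for JB and JBlyp/lyp, 0.20 to 0.24 for these against F344 and F344lyp, -0.10 to 0.08 for the others), so the numbers were not taken to pair the samples; crossing the DR+/+ numbers, chosen after seeing the data, gave 11176 calls there against 10837 with the replicate block. The number of probe sets reaching 0.5 of their gene's highest step (9, the highest included) was 10 with the covariate or without the DR+/+ arrays. With 2 arrays a group, the number of arrays limits all of this.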
